A study of Mus musculus with 12 samples.

Results

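A set of 116 genes stood at a higher level in MLO-Y4 cells of the μ-g and 1-g groups than in cells of the control and 2-g groups. MLO-Y4 is a mouse cell line used as a model of the osteocyte, the cell that sits inside bone and senses load. The cells were cultured for 48 h in a superconducting magnet at positions with an apparent gravity of μ-g, 1-g or 2-g, or outside it at normal gravity in the geomagnetic field as the control. The field was equally strong for μ-g and 2-g and stronger for 1-g, so field and apparent gravity both differ between the groups. All groups are of the same cell line with no genetic change between them, and each group has 3 arrays (Affymetrix Mouse Gene 1.0 ST). The labels call the 3 arrays biological replicates and do not say whether they came from separate cultures, so the error given here is the spread between these samples.

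The genes were chosen by the measured values themselves. Values are log2 intensities, on which a difference of 1 is a doubling. Of 19938 genes with a single symbol, 11093 had a mean over the 12 arrays above 7. Among these, a gene was taken where the lower of its μ-g and 1-g means exceeded the higher of its control and 2-g means by 0.20 or more, and this difference is called the gap. The rule was met by 117 genes (1.05%), and 1 of the 3 genes it leaves out by name (Epas1, Sesn3 and Ccng1) was among them. The mirror image, lower in μ-g and 1-g by the same gap, was met by 161 genes. The direction and size of the gap are therefore a description of the choice, and no test is given for any contrast between the sides.

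As background, several systems meet in this set. Cells build fatty acids and cholesterol under control of sterol-sensing transcription factors, and spend them under control of the energy sensor AMPK, the coactivator encoded by Ppargc1a and nuclear receptors such as Pparg. Lysosomes break down what endosomes deliver, and the genes of many lysosomal proteins carry E-boxes near their start sites, which are bound by the MiT family of transcription factors (Mitf, Tfeb, Tfe3 and Tfec). In bone, osteocytes and their relatives secrete and respond to growth factors, chemokines and mineral-regulating kinases.

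The gaps were small. The median was 0.24 on the log2 scale (1.18-fold), the lowest 0.20 (1.15-fold) and the highest 0.47 (1.38-fold). A gap of 0.25 or more was found in 45 genes, of 0.30 or more in 16, and of 0.40 or more in 3, Ehd3, Ppargc1a and Elovl6. Just inside the limit lay Fam20c, Trim37 and Trpm7, whose gaps ran from 0.2002 to 0.2008, and just outside it Fam53b, Fam185a and Gtf2h1, from 0.1987 to 0.1993. The limit thus divides genes with nearly the same values. The median difference was 0.29 in μ-g v.s. control and 0.27 in 1-g v.s. control. Against 2-g it was 0.31 for μ-g and 0.29 for 1-g, and the median standard error of each of these differences was 0.096. The 4 differences share their groups and so are not separate evidence.

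**Figure D1:**
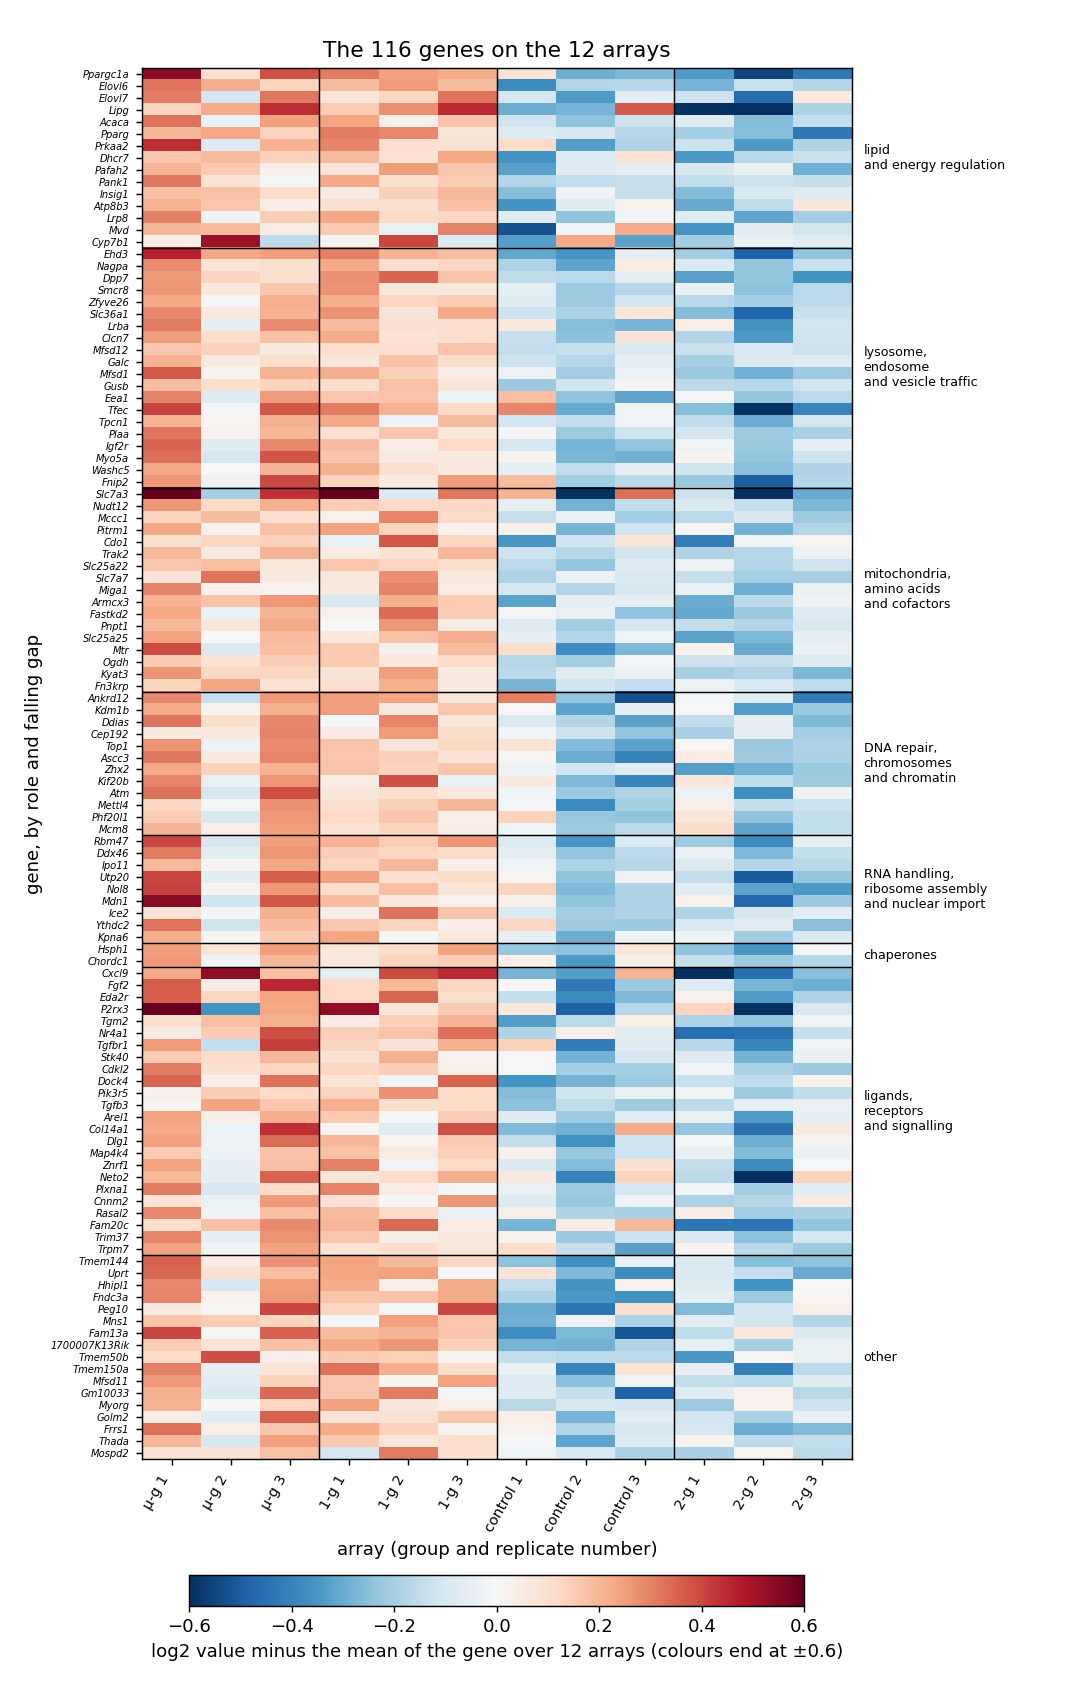
Log2 value of each of the 116 genes (rows, grouped by role and ordered by falling gap) on each of the 12 arrays (columns), minus the gene's mean over the 12 arrays. The 6 arrays on the left (μ-g and 1-g) are mostly red and the 6 on the right (control and 2-g) mostly blue, as the choice requires, while the second array of μ-g is pale or blue for many genes.

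In 53 of the 116 genes (45.7%) all 6 arrays of μ-g and 1-g lay above all 6 arrays of control and 2-g. Among all genes with a mean above 7 this held for 2.59%, but the choice uses the same values, so nothing is read from the difference. In the other 63 genes the arrays of the sides overlapped. Counts without overlap are also given by role below. The roles were assigned after the genes were seen, so nothing is read from those counts either. The mean within-group SD had a median of 0.12 over the set, against 0.085 over all genes with a mean above 7.

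The arrays did not carry the set equally. Averaged over the 116 genes, each set to a mean of 0 over the 12 arrays, the μ-g arrays stood at 0.25, 0.04 and 0.22 and the 1-g arrays at 0.15, 0.15 and 0.13. The control arrays stood at -0.09, -0.22 and -0.11, and the 2-g arrays at -0.14, -0.25 and -0.14. Replicate 2 was therefore the lowest of its group in μ-g, control and 2-g, but not in 1-g. On μ-g replicate 2 only 71 of the 116 genes exceeded their own mean, against 108 to 116 on the other 5 arrays of μ-g and 1-g. A list of 39 genes of the hypoxia response with a mean above 7 moved the opposite way between the sides. It stood between -0.51 and -0.36 on the μ-g and 1-g arrays, between -0.08 and 0.40 on the control arrays and between 0.66 and 0.79 on the 2-g arrays. On that list replicate 2 was the highest array in every group, also in 1-g, where it was not the lowest on the 116 genes. Control replicate 3 was the lowest control array on the list, whereas control replicate 1 was the highest on the 116 genes. The part of the hypoxia response in the result was not tested. Array medians over all 28856 transcript clusters lay between 7.04 and 7.12.

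**Figure D2:**
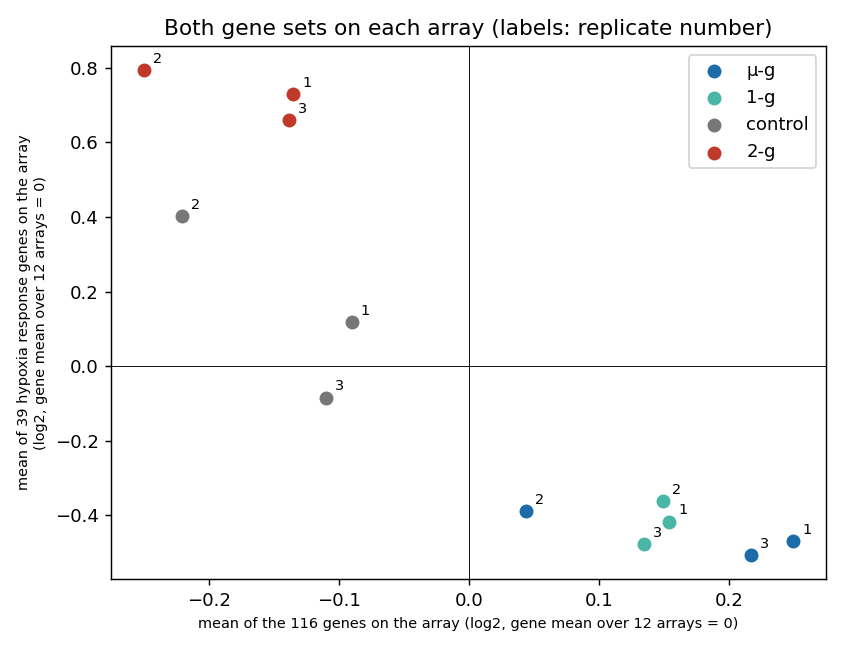
Each point is an array, coloured by group and labelled with its replicate number. The x axis is the mean of the 116 genes and the y axis the mean of 39 hypoxia response genes, both in log2 with each gene's mean over the 12 arrays set to 0. The μ-g and 1-g arrays lie at the lower right, with μ-g replicate 2 nearest to 0 on the x axis, and the 2-g arrays lie at the upper left.

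The labelled cell type was read from its markers. Gja1, the gap junction protein of osteocytes, had a mean of 12.12 and Pdpn, a marker of young osteocytes, 12.22, whereas the mineralization regulators Dmp1 (5.63), Phex (5.43) and Mepe (5.11) lay below the level of 7. Of 19 osteoblast and osteocyte markers 9 had a mean above 7. Of 12 macrophage markers 4 had a mean above 7, as did 4 of 10 osteoclast markers, 4 of 9 adipocyte markers, 1 of 10 endothelial markers and 0 of 10 mast cell markers. In the lists of other cell types, Ptprc, Adgre1, Calcr, Adipoq, Pecam1 and Kit were below 7. Csf1r (7.23) and Lyz2 (7.41) of macrophages, Nfatc1 (8.46) of osteoclasts, Cebpa (8.35) and Retn (7.57) of adipocytes and Vwf (7.24) of endothelium were above it. Members of these lists with high levels were Ctsk (12.46), the collagen-degrading protease of osteoclasts, Fabp4 (10.73), Itgb3 (9.95), Cd68 (9.64), Cd14 (9.05) and Mmp9 (8.74). Ctsk and Cd68 had their lowest group mean in 2-g, at 12.04 and 9.24, against 12.54 and 9.64 in control. They stood at 12.61 and 9.78 in μ-g and at 12.65 and 9.89 in 1-g. Itgb3, Mmp9, Nfatc1, Lyz2 and Vwf were also lowest in 2-g. In contrast, Fabp4 (10.90), Retn (7.90) and Cebpa (8.42) were highest in 2-g. Csf1r and Cd14 were highest in control, at 7.38 and 9.14, and lowest in 1-g, at 7.12 and 8.98. Only the adipocyte list holds a gene of the set, Pparg. The mean of the macrophage list lay between 6.62 and 6.74 on the μ-g arrays, 6.58 and 6.75 on 1-g, 6.62 and 6.70 on control and 6.58 and 6.64 on 2-g. The osteoclast list lay between 7.69 and 7.72 on μ-g, 7.64 and 7.67 on 1-g, 7.59 and 7.68 on control and 7.46 and 7.58 on 2-g. The part of other cell types in the result was not tested. In bulk RNA, fewer cells of a type and less RNA per cell cannot be told apart.

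Lipid and energy regulation took 15 of the 116 genes, with gaps from 0.22 to 0.42 and 8 without overlap of the arrays. Ppargc1a, the coactivator that drives mitochondrial biogenesis, read 9.9999, 9.57 and 9.85 on the μ-g arrays and 9.78, 9.71 and 9.69 on 1-g. It read 9.55, 9.17 and 9.20 on control and 9.12, 8.92 and 9.03 on 2-g. The sides did not overlap, but the lowest μ-g array and the highest control array were nearly equal. A further transcript cluster of Ppargc1a, not used in the choice, had a gap of 0.31.

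Elovl6, the elongase that extends palmitate, had a μ-g mean of 10.99 ± 0.10 (SD, n = 3) and a 1-g mean of 10.98 ± 0.04, against 10.53 ± 0.12 for control and 10.57 ± 0.08 for 2-g. Its lowest array on the high side was 10.90 and its highest on the low side 10.63, so the groups stood well apart. Its relative Elovl7 had a gap of 0.34 with overlapping arrays, since μ-g replicate 2 read 8.31 and 2-g replicate 3 read 8.47.

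Acaca, acetyl-CoA carboxylase, makes the building block for fatty acid synthesis. It read 10.36, 9.99 and 10.28 in μ-g and 10.27, 10.07 and 10.21 in 1-g, against 9.91, 9.80 and 9.91 in control and 9.96, 9.78 and 9.89 in 2-g. The sides were separated by a narrow margin on μ-g replicate 2. A further cluster of Acaca had a gap of 0.28.

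Pparg, the nuclear receptor of fat storage, read 10.12, 10.15 and 10.05 in μ-g and 10.23, 10.21 and 9.99 in 1-g. In control it read 9.84, 9.82 and 9.75 and in 2-g 9.72, 9.66 and 9.49. All 6 arrays of the high side exceeded those of the low side, and 2-g stood lowest. Lipg, a secreted lipase, overlapped: it read 9.84 to 10.15 in μ-g, 9.86 to 10.16 in 1-g, 9.05 to 9.52 in 2-g, and 9.41, 9.43 and 10.08 in control. Prkaa2, a catalytic subunit of AMPK, had a gap of 0.30 and also overlapped between the sides.

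Sterol metabolism was represented by Dhcr7 (gap 0.28), the reductase of the last step of cholesterol synthesis, Insig1 (0.27), which holds sterol regulatory element binding proteins in the endoplasmic reticulum, and Mvd (0.24), mevalonate decarboxylase. Insig1 read 11.55, 11.55 and 11.48 in μ-g and 11.42, 11.52 and 11.57 in 1-g. It read 11.12, 11.35 and 11.23 in control and 11.11, 11.28 and 11.29 in 2-g, without overlap. Mvd did overlap, with control replicate 3 at 10.03. The other genes of this role were Pafah2 (0.27), an acetylhydrolase of platelet-activating factor, Pank1 (0.27), a kinase that opens coenzyme A synthesis, Atp8b3 (0.25), a phospholipid flippase, Lrp8 (0.25), a receptor of apolipoprotein E, and Cyp7b1 (0.22), an oxysterol hydroxylase.

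A list of 27 genes of cholesterol and fatty acid synthesis, chosen with earlier results of these data known, holds 4 of the set, Acaca, Dhcr7, Insig1 and Mvd. In 23 of the 27 the gap was above 0, against 34.5% of all genes with a mean above 7. The rule itself uses the gap, and in the 4 genes of the set it is above 0 by definition. Nothing is therefore read from the difference in shares. The median gap of the list was 0.13, and its genes outside the set included Hsd17b7 (0.20, just under the limit), Idi1 (0.19), Lss (0.18), Fasn (0.18) and Hmgcs1 (0.16), all enzymes of these pathways. The 4 genes with a gap below 0 were Insig2 (-0.24), Tm7sf2 (-0.11), Srebf1 (-0.05) and Scd2 (-0.01). In 2-g v.s. control, 1 gene of the 27 passed the test, and it was higher in 2-g.

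**Figure D3:**
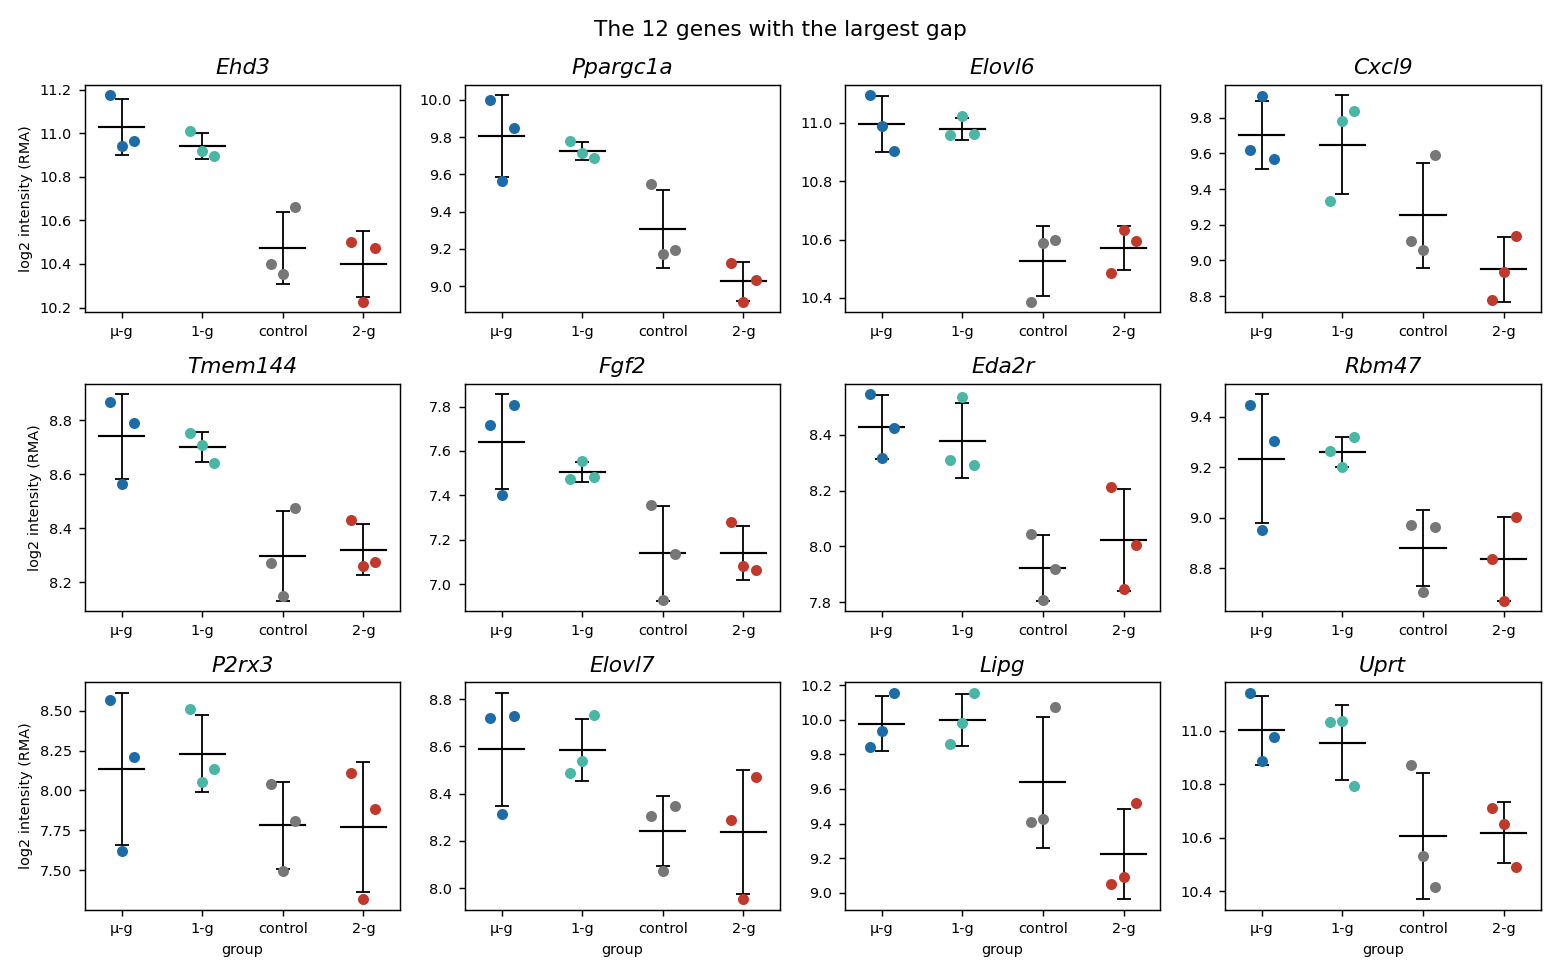
Log2 intensity of the 12 genes with the largest gap. Points are the 3 arrays of each group, left to right in order of replicate number, the horizontal line is the group mean and the error bar the SD. Ehd3, Ppargc1a, Elovl6, Tmem144, Fgf2 and Eda2r show no overlap between the sides, and the other 6 genes do; the y axes differ between panels and do not start at 0.

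Proteins of the lysosome, the endosome and vesicle traffic formed the next group, 20 genes with gaps from 0.21 to 0.47. Of the 20, 12 had no overlap between the sides, against 45.7% of the whole set and 2.59% of all genes with a mean above 7. The largest gap of the whole set was that of Ehd3, an ATPase of endosome recycling. It read 11.17, 10.94 and 10.96 in μ-g and 11.01, 10.92 and 10.89 in 1-g, against 10.40, 10.35 and 10.66 in control and 10.50, 10.23 and 10.47 in 2-g. Its lowest high-side array exceeded its highest low-side array by more than any within-group SD of this gene.

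Lysosomal enzymes and their sorting were represented by several genes. Nagpa (gap 0.30) uncovers the mannose phosphate tag that sends enzymes to lysosomes, and Igf2r (0.21) is a receptor for that tag. Dpp7 (0.29), a peptidase, Galc (0.23), a galactosylceramidase, and Gusb (0.23), a glucuronidase, are enzymes of the lumen. Nagpa read 10.03 to 10.23 in μ-g and 10.04 to 10.17 in 1-g, against 9.63 to 9.99 in control and 9.71 to 9.85 in 2-g. Dpp7 read 11.24, 11.11 and 11.08 in μ-g and 11.25, 11.33 and 11.15 in 1-g. In control Dpp7 read 10.83, 10.82 and 10.93 and in 2-g 10.66, 10.75 and 10.62, so the sides were clearly separate and 2-g lay lowest. Galc and Gusb did not overlap either, while Igf2r did.

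Membrane proteins of lysosomes were Slc36a1 (gap 0.27), an amino acid exporter, Clcn7 (0.24), a chloride and proton exchanger, Mfsd12 (0.24) and Mfsd1 (0.23), transporters, and Tpcn1 (0.22), a cation channel. Clcn7 read 10.51 to 10.65 in μ-g and 10.48 to 10.62 in 1-g, and 10.15 to 10.48 in control and 10.06 to 10.28 in 2-g. Mfsd12 had the narrowest spread of them, with means of 10.29 and 10.30 in μ-g and 1-g and 10.05 and 10.06 in control and 2-g. Vesicle traffic and autophagy were represented by Smcr8 (0.28), Zfyve26 (0.28), Lrba (0.27), Eea1 (0.22), Plaa (0.22), Myo5a (0.21), Washc5 (0.21) and Fnip2 (0.21). Tfec, the MiT family member, had a gap of 0.22 and overlapped, because control replicate 1 read 9.12 and μ-g replicate 2 read 8.82. None of the 41 genes of an autophagy and lysosome list, chosen with earlier results known, was in the set. A gap above 0 was found in 26 of them, against 34.5% of all genes with a mean above 7. The rule uses the gap, so nothing is read from the difference. The highest gap of the list was that of Npc1 (0.18), a cholesterol exporter of lysosomes.

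The E-box is shown for its place in promoters of lysosomal genes. Promoters of RefSeq, short windows around each start site in build GRCm38.p6, were found for 93 of the 116 genes. The letters CACGTG, which read the same on both strands, were present in a promoter of 19 of the 93 genes (20.4%), against 12.1% of genes with a mean above 7 that have a promoter and 7.15% of all promoter windows. Of the 17 lysosome, endosome and traffic genes with a promoter, 7 held it: Nagpa, Dpp7, Zfyve26, Slc36a1, Clcn7, Mfsd1 and Igf2r. Other roles held it too: 3 of 9 genes of DNA repair and chromatin, 2 of 7 of RNA handling and 1 of 2 chaperones. It was in 3 of 18 signalling, 2 of 13 lipid, 1 of 12 mitochondrial and 0 of 15 other genes. The roles were assigned after the genes were seen. Windows of 30 bases from 6 genes of the lysosome, endosome and traffic group and from 2 sterol genes follow, 5′ to 3′ on the strand of the gene. The E-box is in capitals.
Dpp7, chr2:25356388-25356417, minus strand: ccgccagactatCACGTGatgctgccccgc
Clcn7, chr17:25133386-25133415, plus strand: ccgatgatagatCACGTGagacctgggcgc
Slc36a1, chr11:55204325-55204354, plus strand: gggagccagcatCACGTGacagggcccgga
Igf2r, chr17:12769737-12769766, minus strand: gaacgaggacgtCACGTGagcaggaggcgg
Mfsd1, chr3:67582686-67582715, plus strand: tgagcaaccgttCACGTGagcacggagagg
Nagpa, chr16:5204005-5204034, minus strand: ctggcctggaatCACGTGgggcgagcccac
Insig1, chr5:28071299-28071328, plus strand: gctgggtgaggtCACGTGgctccggtggca
Dhcr7, chr7:143823223-143823252, plus strand: cgctgtgatgaaCACGTGgcaaaaagcagc

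Counted from the start site, with positions before it negative, the first base of the E-box lay at -73 in Dpp7, 7 in Clcn7, -3 in Slc36a1, -48 in Igf2r, -70 in Mfsd1, -10 in Nagpa, -101 in Insig1 and -164 in Dhcr7. Over the whole promoter Mfsd1 held 5 E-boxes, at -86, -70, -36, -26 and -18, and Clcn7, Igf2r, Nagpa and Slc36a1 held 2 each. The windows shown are a selection. Other E-boxes in these promoters are flanked in various ways, among them TCACGTGG at -15 in Clcn7, GCACGTGA at -31 in Slc36a1 and TCACGTGA at -7 in Igf2r. In the first 5 of the windows shown the E-box is flanked as TCACGTGA. That longer form, looked for after the windows had been seen, was in the promoters of 7 genes of the set, Clcn7, Dpp7, Igf2r, Mfsd1, Slc36a1, Trpm7 and Zfyve26 (7.53%), against 2.32% of genes with a mean above 7. A match describes the letters and does not show that a factor binds there.

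The other motifs were also searched on both strands. ACGTG, the core of the hypoxia response element, which every E-box contains, was in 33.3% of the set against 30.2%. TGACGT, the core of the cyclic AMP element, was in 16.1% against 13.7%. TGANTCA, the AP-1 site, was in 6.45% against 5.94% and TGTTTAC, a forkhead site, in 3.23% against 3.05%. CCAAT was in 52.7% against 43.1%, and a p53 half-site in 15.1% against 8.26%. Shares of the comparison are over genes with a mean above 7.

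Mitochondria, amino acids and cofactors accounted for 17 genes, with gaps from 0.22 to 0.31 and 11 without overlap. Slc7a3, a transporter of cationic amino acids, had the largest gap of them and the widest scatter. It read 10.72, 9.90 and 10.54 in μ-g, 10.70, 10.02 and 10.42 in 1-g, 10.32, 9.46 and 10.44 in control and 9.98, 8.98 and 9.81 in 2-g. Replicate 2 was the lowest array in all 4 groups, and within each replicate number 2-g was the lowest group. Slc7a7 (0.24), a subunit of an amino acid exchanger, varied little by comparison, with means of 7.41, 7.40, 7.15 and 7.08 in μ-g, 1-g, control and 2-g.

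Mitochondrial carriers and enzymes had gaps close to the median of the set. Slc25a22 (0.24) carries glutamate, and Slc25a25 (0.23) carries ATP and magnesium. Mccc1 (0.27) acts in leucine breakdown, Pitrm1 (0.26) degrades peptides and presequences, and Ogdh (0.23) is a subunit of the oxoglutarate dehydrogenase of the citric acid cycle. Ogdh read 11.29, 11.23 and 11.29 in μ-g and 11.29, 11.20 and 11.25 in 1-g, against 10.97, 10.93 and 11.13 in control and 11.01, 11.00 and 11.06 in 2-g. The sides were apart in this gene. Ogdh was the only gene of the set among 33 genes of the citric acid cycle and fatty acid oxidation, 18 of which had a gap above 0. No gene of a respiratory chain list of 42 was in the set, and 7 of them had a gap above 0. The share over all genes with a mean above 7 was 34.5%. Since the rule uses the gap, nothing is read from either count. Trak2 (0.24), Miga1 (0.24), Armcx3 (0.23), Fastkd2 (0.23) and Pnpt1 (0.23) act in mitochondrial transport, shape and RNA. Nudt12 (0.29), Cdo1 (0.25), Mtr (0.23), Kyat3 (0.22) and Fn3krp (0.22) handle NADH, cysteine, methionine, kynurenine and sugar-modified proteins.

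Among ligands, receptors and signalling proteins there were 24 genes, 9 of them without overlap. Cxcl9, a chemokine that attracts T cells, read 9.62, 9.92 and 9.57 in μ-g and 9.33, 9.78 and 9.84 in 1-g. It read 9.11, 9.06 and 9.59 in control and 8.78, 8.94 and 9.14 in 2-g, and 1-g replicate 1 lay below control replicate 3. Fgf2, a growth factor of bone and vessels, read 7.72, 7.40 and 7.81 in μ-g, 7.47, 7.56 and 7.48 in 1-g, 7.36, 6.93 and 7.13 in control and 7.28, 7.08 and 7.06 in 2-g. The sides did not overlap in Fgf2, but μ-g replicate 2 and control replicate 1 differed by less than the SD of either group.

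Receptors included Eda2r (gap 0.36), a death receptor of the TNF family and p53 target, P2rx3 (0.35), an ATP-gated channel, Tgfbr1 (0.26), the kinase receptor of TGF-β, and Plxna1 (0.20), a semaphorin receptor. Eda2r read 8.55, 8.32 and 8.42 in μ-g, 8.31, 8.54 and 8.29 in 1-g, 8.04, 7.81 and 7.92 in control and 8.21, 7.85 and 8.01 in 2-g, with no overlap. P2rx3 overlapped widely, from 7.62 to 8.57 in μ-g and from 7.32 to 8.11 in 2-g. Its other cluster had a mean below 7 and a gap of 0.07. Tgfb3 (0.22), a ligand of the TGF-β family, did not overlap.

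Secreted and matrix proteins were Tgm2 (0.28), a transglutaminase, Col14a1 (0.22), a fibril-associated collagen, and Fam20c (0.20), the kinase that phosphorylates secreted proteins of bone matrix. Nr4a1 (0.26), an early response nuclear receptor, read 10.42, 10.53 and 10.76 in μ-g and 10.52, 10.55 and 10.70 in 1-g. It read 10.19, 10.41 and 10.31 in control and 9.92, 9.93 and 10.24 in 2-g, so control replicate 2 nearly reached the lowest μ-g array. Kinases and their partners were Stk40 (0.24), Cdkl2 (0.24), Pik3r5 (0.23) and Map4k4 (0.21). Dock4 (0.23) and Rasal2 (0.20) regulate small GTPases, Arel1 (0.22), Znrf1 (0.21) and Trim37 (0.20) are ubiquitin ligases, and Dlg1 (0.22) and Neto2 (0.20) organize membrane proteins. Cnnm2 (0.20) acts in magnesium transport and Trpm7 (0.20) is a channel with a kinase domain.

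Genes of DNA repair, chromosomes and chromatin numbered 12, 5 without overlap. They were Ankrd12 (gap 0.29), Kdm1b (0.27), Ddias (0.27), Cep192 (0.27), Top1 (0.26), Ascc3 (0.25), Zhx2 (0.23), Kif20b (0.23), Atm (0.22), Mettl4 (0.21), Phf20l1 (0.21) and Mcm8 (0.21). Top1 relaxes supercoiled DNA, Atm is the kinase that answers double-strand breaks, and Kdm1b removes methyl groups from histones. In Atm the μ-g arrays read 9.54, 9.12 and 9.60, and only replicate 2 fell into the range of the low side, whose highest array was 9.20. RNA handling, ribosome assembly and nuclear import gave 9 genes, Rbm47 (0.36), Ddx46 (0.28), Ipo11 (0.24), Utp20 (0.24), Nol8 (0.22), Mdn1 (0.22), Ice2 (0.21), Ythdc2 (0.21) and Kpna6 (0.21). Rbm47, an RNA-binding protein of splicing and editing, read 9.45, 8.95 and 9.30 in μ-g, where replicate 2 again fell below the highest array of the low side, 9.004.

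The chaperones were Hsph1 (0.27), a nucleotide exchange factor of heat shock proteins, and Chordc1 (0.21), a partner of the Hsp90 chaperones. Both overlapped. They were the only genes of the set in a heat shock list of 18, where Cryab, a small heat shock protein, had the lowest gap (-0.76). A gap above 0 was found in 13 of the 18, against 34.5% of all genes with a mean above 7. Nothing is read from the difference, since the rule uses the gap. The remaining 17 genes had other or less defined functions. Tmem144 had the largest gap among them (0.38) and no overlap, with means of 8.74, 8.70, 8.30 and 8.32 in μ-g, 1-g, control and 2-g, and Uprt (0.34) followed. Then came Hhipl1 (0.29), Fndc3a (0.27), Peg10 (0.27), Mns1 (0.25), Fam13a (0.25), 1700007K13Rik (0.24), Tmem50b (0.23), Tmem150a (0.23), Mfsd11 (0.23), Gm10033 (0.23), Myorg (0.22), Golm2 (0.21), Frrs1 (0.21), Thada (0.20) and Mospd2 (0.20).

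The groups on the same side were compared with limma over all 19938 genes. The rule bears on these comparisons too, because a gap measured from the lower high-side mean to the higher low-side mean favours genes whose same-side groups lie close together, so nothing is read from a small number of calls in the set. In μ-g v.s. 1-g none of the 116 genes passed an adjusted p of 0.05, nor did any of the 19938 genes (0%). At an unadjusted p under 0.05, limma gave 0 genes of the set, and 273 higher (1.37%) and 187 lower (0.938%) of all genes. The differences in the set ran from -0.11 (Tmem150a) to 0.17 (Mdn1) with a median of 0.02, and 78 of the 116 were above 0. This median rested on single arrays: with 1 μ-g array left out it was -0.01 (replicate 1), 0.09 (replicate 2) or 0.01 (replicate 3). The 95% intervals reached a median of 0.21 to either side, and of 0.15 with replicate number as a block. Differences below that size could therefore not be resolved in many of the genes with 3 arrays per group.

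In 2-g v.s. control, 1 of the 116 genes passed with limma and it was lower in 2-g (0.862% of the set), against 1.68% of all genes called higher and 1.43% called lower. At an unadjusted p under 0.05, 3 genes of the set were higher and 8 lower in 2-g, against 8.65% and 8.1% of all genes. The shares of all genes include genes with a mean below 7, which the set does not hold, so nothing is read from these differences. The gene that passed was Zhx2, a transcriptional repressor with zinc fingers and homeoboxes. Zhx2 read 9.06, 8.97 and 9.04 in μ-g, 8.998, 8.97 and 8.99 in 1-g, 8.80, 8.71 and 8.76 in control and 8.50, 8.54 and 8.61 in 2-g. The 4 groups were in this order with no overlap between control and 2-g. The difference was -0.21 (SE 0.05, limma adjusted p = 0.0326), or 0.864-fold. The call was lost without replicate 1, 2 or 3 of 2-g (limma adjusted p = 0.0928, 0.0934 and 0.064) and without replicate 1 or 3 of control (0.115 and 0.111).

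Samples of the same replicate number deviated together in both comparisons, and with the number as a block 8 genes of the set passed in 2-g v.s. control (6.9%). Of all genes, 4.32% were called lower and 5.06% higher under the same fit. These shares include genes with a mean below 7, which the set does not hold. They were not counted over genes with a mean above 7, so nothing is read from the difference. All 8 genes of the set that passed were lower in 2-g. They were Slc7a3 (-0.48, limma adjusted p with the block 0.00939), Tfec (-0.44, 0.0121), Lipg (-0.42, 0.0101), Fam20c (-0.36, 0.0485), Ppargc1a (-0.28, 0.0363), Nr4a1 (-0.28, 0.0292), Zhx2 (-0.21, 0.0143) and Pparg (-0.18, 0.0382). These are a transporter, a lipase, a kinase of secreted proteins, a coactivator and 4 transcription factors. In Tfec the 2-g arrays read 8.58, 8.13 and 8.43 and the control arrays 9.12, 8.53 and 8.81, so 2-g was the lower in each replicate number although the groups overlapped. Fam20c read 9.12, 9.11 and 9.32 in 2-g and 9.28, 9.60 and 9.75 in control, again lower in each number. The size of some of these differences rested on single arrays. Slc7a3 stood at -0.18 without 2-g replicate 2, -0.30 without control replicate 3 and -0.79 without control replicate 2. Without control replicate 1 the difference was -0.29 for Tfec and -0.16 for Ppargc1a, without control replicate 3 it was -0.20 for Lipg, and without 2-g replicate 3 it was -0.11 for Pparg.

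Over the whole set the differences of 2-g from control ran from -0.48 to 0.33 with a median of -0.01. Leaving out each of these 6 arrays in turn moved this median between -0.05 (control replicate 2) and 0.01 (2-g replicate 2). The median was 0.009 without control replicate 1 and 7.4e-06 without control replicate 3. In 97 genes the difference was within 0.15 and in 15 genes 2-g lay at least 0.15 below control. In 4 genes it lay at least 0.15 above: Fam13a, a regulator of adipocyte metabolism, Fndc3a, Dock4 and Gm10033. Fam13a read 7.81, 8.02 and 7.88 in 2-g and 7.59, 7.69 and 7.45 in control, with no overlap, yet its difference of 0.33 (SE 0.10) did not pass (limma adjusted p = 0.0967). The order of the low-side groups varied from gene to gene, and their closeness in most genes is in part set by the choice.

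**Figure D4:**
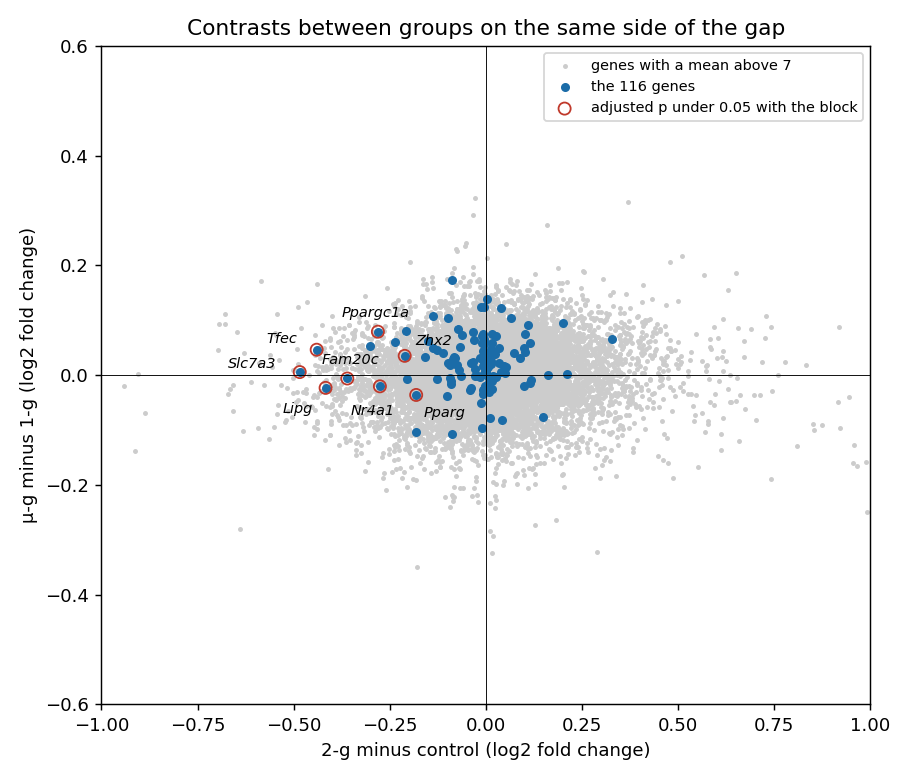
Log2 difference of 2-g from control (x axis) and of μ-g from 1-g (y axis) for the 116 genes (blue) and all genes with a mean above 7 (grey, 14 of them beyond the axes). Red circles mark the 8 genes with a limma adjusted p under 0.05 in 2-g v.s. control with the replicate block, all left of 0.

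The gap was also read with the choice repeated on part of the arrays. As the pattern itself was picked with all 12 arrays in view, this is a description of the spread between replicate numbers and no independent support of the set. The rule was applied to the 8 arrays of all but 1 replicate number, and the gap of the genes so chosen was then read in the 4 arrays of the remaining number, with 1 array per group and no test. With number 2 left out, 73 genes were chosen, their median gap in the 4 other arrays was 0.195, and it was above 0 in 66 of them (90.4%), against 35.2% of all genes with a mean above 7 in the 8 arrays. With number 1 left out, 165 genes were chosen, and the median was 0.06 and above 0 in 63.6% against 26.8%. With number 3 left out, 174 genes gave a median of 0.09 and 74.7% above 0 against 23.4%. A gap of 0.20 or more was reached by 35 of 165, 35 of 73 and 36 of 174 genes for numbers 1, 2 and 3, against 1.63%, 1.69% and 0.836% of the same comparison genes. In the 8 arrays of the choice the median gap was between 0.23 and 0.24. A lower value in 4 arrays is partly built in, since the gap takes the lower and the higher of single arrays there, and over the comparison genes its median was -0.07, -0.04 and -0.09 for numbers 1, 2 and 3. The mean of μ-g and 1-g minus the mean of control and 2-g, which has no such pull, had a median of 0.20, 0.28 and 0.22 over the chosen genes in the 4 arrays, and of 0.03, 0.05 and 0.02 over the comparison genes.

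**Figure D5:**
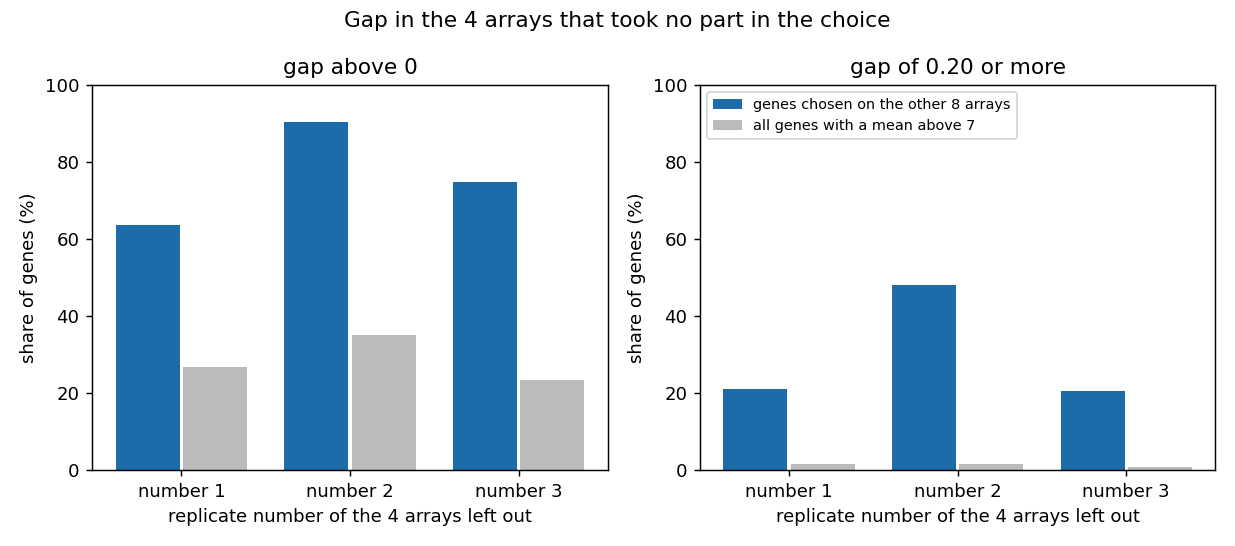
Share of genes (%) with a gap above 0 (left) and of 0.20 or more (right) in the 4 arrays of a replicate number that was left out of the choice. Blue bars are genes chosen on the other 8 arrays and grey bars all genes with a mean above 7 in those 8 arrays; the blue bars are higher for all 3 numbers.

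Genomic length was not used by the rule. The genes were longer than others, with a median genomic span of 45.3 kb against 22.0 kb over genes with a mean above 7, and 20.7% against 11.5% spanned more than 100 kb. Their mean level, which the rule limits from below, had a median of 9.37 against 9.39. A further 10 transcript clusters map to 8 of the genes, Acaca, Armcx3, Cep192, Gm10033, P2rx3, Phf20l1, Ppargc1a and Uprt. The gap was above 0 in all 10 of these clusters, from 0.07 to 0.31, though they measure the same RNA samples. When the rule was applied again with each of the 12 arrays left out in turn, 31 genes stayed in the set, among them Ehd3, Ppargc1a, Elovl6, Cxcl9, Fgf2, Eda2r, Acaca, Pparg, Insig1, Dpp7, Nagpa, Slc36a1 and Zhx2. The other 85 genes dropped out at least once.

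Other gene lists, fixed with earlier results known, held few of the set. The list of nuclear receptors and their coactivators held Ppargc1a, Pparg and Nr4a1 among 33 genes. A gap above 0 was found in 17 of the 33, against 34.5% of all genes with a mean above 7. Within this list Nr1d1, a clock repressor, had a gap of 0.14 and Vdr, the vitamin D receptor, 0.15, both under the limit. Tgfbr1 and Tgfb3 were the genes of the set among 43 of BMP and TGF-β signalling, Eda2r among 26 p53 targets, Cxcl9 among 30 cytokines and chemokines, Fgf2 among 41 growth factors and receptors, Col14a1 among 55 of the extracellular matrix, Slc7a3 among 37 of the stress and amino acid response and Trpm7 among 45 of cyclic nucleotide and calcium signalling. In 2-g v.s. control, limma called 9 genes lower and 1 higher among the 30 cytokines and chemokines, but Cxcl9 was not among them (-0.30, SE 0.17, limma adjusted p = 0.404). None of 40 hypoxia response genes was in the set, 21 of them were called higher in 2-g than in control, and 1 had a gap above 0. As the rule uses the gap, nothing is read from the counts of genes with a gap above 0 in these lists.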

How the data were processed

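RNA of the 12 samples was hybridized to Affymetrix Mouse Gene 1.0 ST arrays. The log2 values of 28856 transcript clusters were used as deposited, after normalization by the authors with RMA. Clusters were named through the platform table and current mouse symbols, and 19938 genes have a cluster with 1 symbol, the one with the highest mean being taken. Group means over all clusters and the 12 arrays were estimated with limma 3.58.1 (R 4.3.3; lmFit and eBayes; 8 residual and 3.90 prior degrees of freedom), and p-values were adjusted by Benjamini and Hochberg over the genes. The fit was tested on simulated data.

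The rule, its gene names, the gene lists and motifs were chosen with earlier results of these data known, and the roles after the genes were seen. Named were the 20 largest gaps, genes called in a tested contrast, list members and genes nearest the limit, the others by role.

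Replicate numbers come from the labels. Deviations from the group means over all genes correlated between samples of 1 number in μ-g v.s. 1-g (0.379, 0.294 and 0.261 for numbers 1, 2 and 3) and in 2-g v.s. control (0.455, 0.499 and 0.262), so the number was also fitted as a block. Arrays of the same group correlated at 0.996 or more, arrays of different groups at 0.9946 or more, and no arrays held identical values. The number of arrays limits the precision.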

Additional observations from a re-analysis of the deposited data

How the results depend on the processing

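The number of genes chosen depended on the limit of the gap: 346 at 0.15 and 16 at 0.30. It was 78 after quantile normalization (77 shared with the 116), 121 with each array centred on its median and 141 with group medians (75 shared). Leaving out each array in turn gave between 90 (without control replicate 2) and 156 (without control replicate 1). Leaving out the 4 arrays numbered 2, an alternative chosen after seeing the data, gave 73 genes, 59 of them shared, while leaving out those numbered 1 or 3 gave 165 and 174. The genes of the set without overlap, 53 with all arrays, were 78, 84 and 70 without the arrays numbered 1, 2 and 3, a number that leaving out arrays can only raise. The share over all genes with a mean above 7 was counted only with all arrays (2.59%), so nothing is read from these numbers. The cause of the difference in genes chosen was not tested.

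In 2-g v.s. control the genes of the set called by limma were 8 with the replicate block in place of 1. Over all genes, 1870 were called with the block in place of 620. They were 0 with each array centred on its median, 0 with an intensity trend and robust prior and 0 with the 6 arrays of these groups alone; Zhx2 then had an adjusted p of 0.0728, 0.0785 and 0.103. Leaving out arrays in turn gave between 0 and 2 genes of the set. Calls over all genes then ran from 145 (without 2-g replicate 3) to 660 (without μ-g replicate 2). Without μ-g replicate 2 Fam13a was called beside Zhx2, and without control replicate 1 Fam20c was called in place of Zhx2. With 1 array fewer, the spread is pooled over the 4 groups. In μ-g v.s. 1-g, all 20 alternatives, the block included, gave 0 genes of the set and 0 of all genes tested. The median gap in arrays left out of the choice was 0.097, and 0.164 with a limit of 0.30. Those arrays were in view when the pattern was picked, so both values are a description only. The 2-g v.s. control differences of the 8 genes called with the block kept their direction under each alternative that could change them. These were median centring, quantile normalization, leaving out a 2-g or control array and, for Ppargc1a, the mean of its clusters. The other alternatives leave these differences the same by construction.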
